A study of Mus musculus with 10 samples.

Results

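The genes of Leydig cell steroidogenesis were examined in testes taken at postnatal day 21 (P21) from Mov10-/- mice and their wild type controls. 10 genes chosen by name for their known roles were used, of 55421 genes in the count files: Lhcgr, Star, Cyp11a1, Hsd3b1, Hsd3b6, Cyp17a1, Hsd17b3, Srd5a1, Nr5a1 and Insl3. 3 RNA-seq libraries were from Mov10-/- testes (replicates 2, 3 and 4) and 3 were from wild type (Mov10+/+) testes (replicates 1, 2 and 3), each made from 1 pair of whole testes by poly(A) selection with a stranded kit. MOV10 is an RNA helicase, and the Mov10-/- mice are global knockouts that carry a deletion made with Actb-Cre, which is active in all tissues. The mutant mice were on a mixed 129, C57BL/6 and FVB background, and the controls carried no Mov10 deletion. 4 libraries of MOV10 CLIP-seq, in which RNA linked to MOV10 by ultraviolet light is recovered with an antibody, were made from wild type P21 testes.

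Leydig cells lie between the seminiferous tubules and make androgens from cholesterol. Luteinizing hormone binds its receptor LHCGR, cyclic AMP rises, and STAR moves cholesterol into mitochondria, where CYP11A1 cuts its side chain to give pregnenolone. HSD3B enzymes, CYP17A1 and HSD17B3 then lead to testosterone, which SRD5A1 can reduce further, and the nuclear receptor NR5A1 turns on many of these genes. In the mouse, the adult type of Leydig cell is still maturing in the weeks before puberty, when reduced androgens rather than testosterone leave the testis.

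The RNA-seq libraries held 5083407 to 9230540 reads on genes, and a single read was worth 0.108 to 0.197 CPM (reads scaled to the same library total). Mov10 itself had 29.0, 26.6 and 26.7 CPM in Mov10-/- replicates 2, 3 and 4 and 114, 96.4 and 119 CPM in wild type replicates 1, 2 and 3, with a log2 fold change of -2.00 (adjusted p = 0.00482, edgeR quasi-likelihood test with Benjamini-Hochberg adjustment over 20240 genes), so each library went with its label. Several libraries stood apart. Mov10-/- replicate 3 was the shallowest, with 57.2% of its reads not aligned, against 26.5% to 35.9% in the others. A list of 7 epididymal genes, chosen after their values were seen, summed to 95.5 CPM in Mov10-/- replicate 2, 33.5 CPM in wild type replicate 3 and 13.9 CPM in wild type replicate 2, and to at most 0.6 CPM in the other 3 libraries. The 8 spermatid genes summed to 25.7 to 82.9 CPM in Mov10-/- and 85.9 to 409.6 CPM in wild type libraries, with wild type replicate 2 the highest.

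None of the members passed the test between genotypes. A gene was called at an adjusted p under 0.05 with a fold change over 2, which 15 genes or 0.0741% of the 20240 genes above 1 CPM in at least 3 of the 6 libraries did, 7 of them higher in Mov10-/- (4 of 7 with DESeq2 size factors and 2 of 6 with the Sertoli list as the scale). 9 of the 10 members were tested, with adjusted p from 0.370 to 0.981, and Insl3 was too low. DESeq2, the edgeR exact test and limma voom called none of them either. None of the 9 had an unadjusted p under 0.05, where 5.88% of all tested genes did so as higher and 12.0% as lower in Mov10-/-. For each of the 9 the libraries of both genotypes overlapped, whereas 11.9% of tested genes had every Mov10-/- library above, and 14.1% every one below, the wild type libraries. 7 of the 9 log2 fold changes were above 0 and 2 were below, with a median of 0.23 beside 0.03 over all tested genes. A median above 0 was not particular to the members. It was 0.30 for the Sertoli, 0.31 for the peritubular, 0.35 for the macrophage and 0.22 for the endothelial list. Among germ cell lists it was 0.25 for spermatogonia, 0.08 for spermatocytes and -2.17 for spermatids. The members' median moved to 0.15 without Mov10-/- replicate 2 (5 of 9 above 0) and to 0.38 without wild type replicate 1 (8 of 9). Without both Mov10-/- replicate 2 and wild type replicate 3 it was -0.0019, with 4 of 9 above 0, beside 0.02 over all genes. These libraries were chosen after the data were seen. The first was the highest for 6 and the second the lowest for 5 of the 9 members, so a lower median follows from the choice. When the libraries were scaled by the Sertoli list, all genes moved down together to a median of -0.26, and only 3 of the 9 members stayed above 0. The members' median lay 0.20 above that of all genes under both scales. A change of scale moves all genes by about the same amount, so it could hardly alter this distance. In whole testis, a difference in the number of Leydig cells and one in RNA per Leydig cell cannot be told apart.

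**Figure D1:**
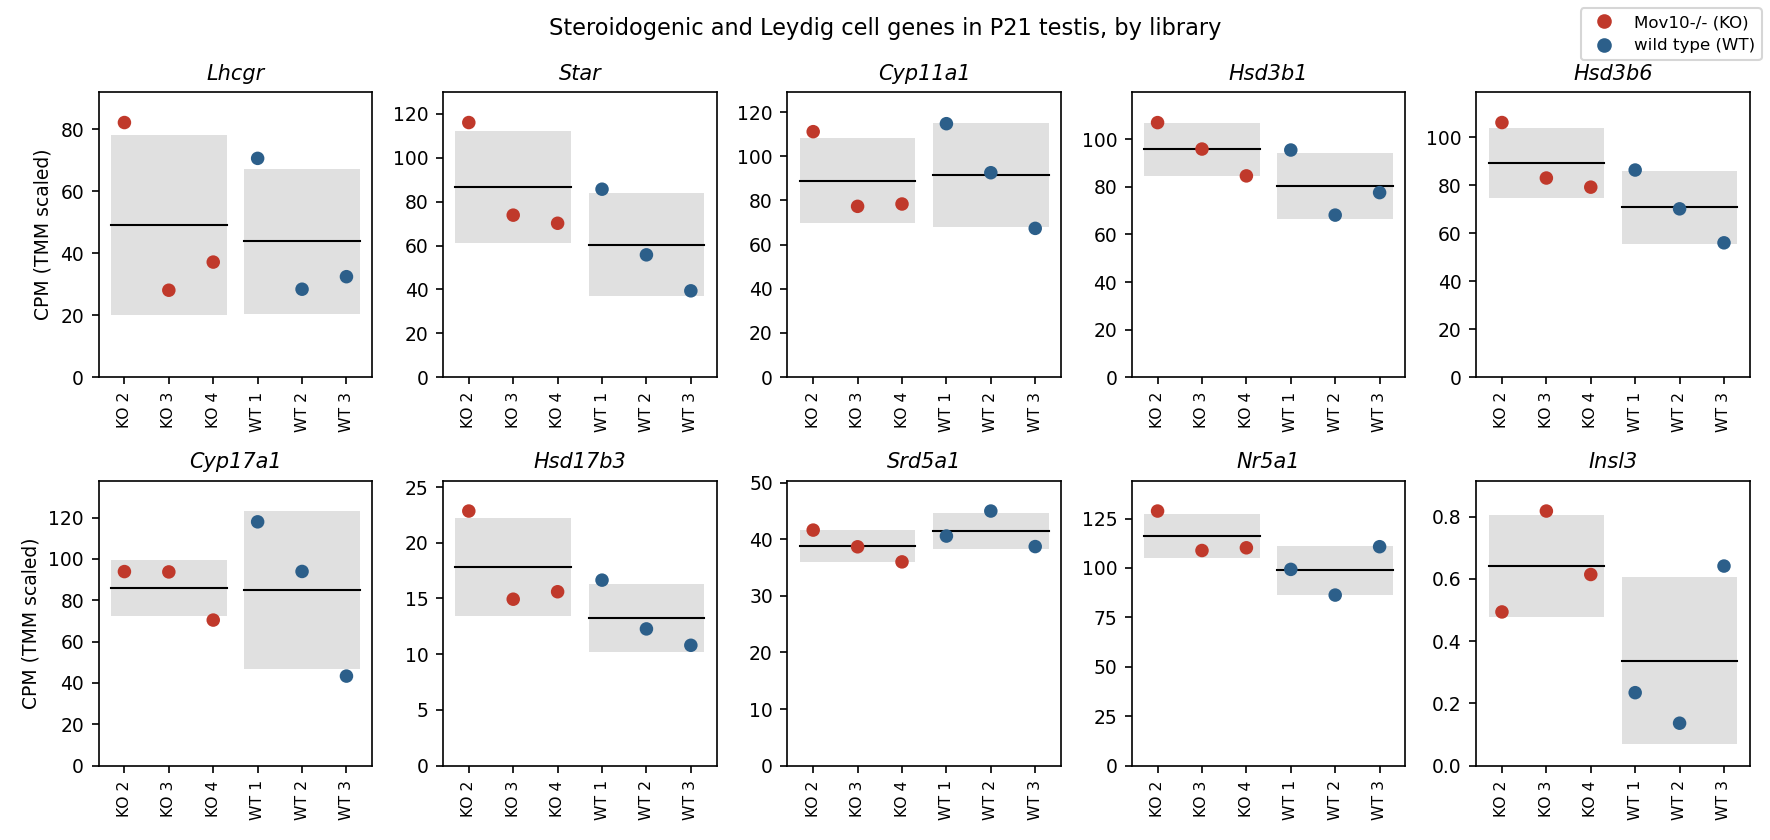
Level of each of the 10 genes in CPM, scaled by TMM, on a linear axis from 0 in the 3 Mov10-/- libraries (red, KO) and the 3 wild type libraries (blue, WT). Black lines are group means and grey bands 1 SD on each side (n = 3); in every panel at least 1 red point lies within the blue range or at least 1 blue point within the red range, and Mov10-/- replicate 2 is the highest library for 6 of the 9 genes tested.

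The receptor for luteinizing hormone was the most uneven member. Lhcgr (ENSMUSG00000024107, chromosome 17 of mm10, 88716481 to 88791990, minus strand) had 82.1, 28.0 and 37.1 CPM in Mov10-/- replicates 2, 3 and 4 and 70.6, 28.4 and 32.4 CPM in wild type replicates 1, 2 and 3. 1 library of each genotype, Mov10-/- replicate 2 and wild type replicate 1, thus stood well above the other 4, and the groups overlapped throughout. The group means were 49.1 ± 29.0 CPM for the Mov10-/- libraries and 43.8 ± 23.3 CPM for the controls (SD, n = 3). The log2 fold change was 0.21 with a standard error of 0.46, and its 95% interval of -0.85 to 1.27 holds changes of more than 2-fold upward. Without Mov10-/- replicate 2 the value was -0.39, so its sign rested on that library.

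Star (ENSMUSG00000031574, chromosome 8, 25806555 to 25815982, plus strand), which brings cholesterol to the inner mitochondrial membrane, had the largest fold change of the members. Its level was 116, 73.9 and 70.2 CPM in Mov10-/- replicates 2, 3 and 4 and 85.7, 55.8 and 39.3 CPM in wild type replicates 1, 2 and 3. Mov10-/- replicate 2 was the highest library, wild type replicate 3 the lowest, and wild type replicate 1 exceeded the 2 remaining Mov10-/- libraries. The means were 86.7 ± 25.5 and 60.3 ± 23.5 CPM (SD, n = 3), with a log2 fold change of 0.54 ± 0.30 (SE), a 95% interval of -0.16 to 1.24 and an adjusted p of 0.386 in edgeR's quasi-likelihood test. Leaving out 1 library at a time gave 0.26 to 0.88. Without both Mov10-/- replicate 2 and wild type replicate 3, which had the most epididymal reads, the log2 fold change was -0.0019 (a choice made after the data were seen). The part of those epididymal reads in the Star value was not tested.

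Cyp11a1 (ENSMUSG00000032323, chromosome 9, 58006411 to 58027023, plus strand), the side chain cleavage enzyme and first step of steroid synthesis, had 111, 77.3 and 78.4 CPM in the Mov10-/- libraries and 115, 92.6 and 67.4 CPM in the wild type libraries, in the same order of replicates. The highest and the lowest library were both wild type. The log2 fold change was -0.03 ± 0.22 (SE), with a 95% interval of -0.54 to 0.49, so a difference of 2-fold in either direction lay outside it. Its sign turned without either of Mov10-/- replicates 3 and 4 and without wild type replicate 1, with values from -0.23 to 0.16 over the 6 libraries left out in turn. Without Mov10-/- replicate 2 and wild type replicate 3 together it was -0.43, with an unadjusted p of 0.0313 and an adjusted p of 0.358 in the same edgeR test.

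The 3-beta-hydroxysteroid dehydrogenases convert pregnenolone to progesterone and related steroids, and in the mouse testis both Hsd3b1 and Hsd3b6 are used, the latter mainly in adult type Leydig cells. Hsd3b1 (ENSMUSG00000027871, chromosome 3, 98852194 to 98859794, minus strand) and Hsd3b6 (ENSMUSG00000027869, chromosome 3, 98805504 to 98814443, minus strand) are neighbours, 5.94 and 5.98 Mb from Mov10. Their coding sequences, each of 1119 bases, differ at 112 positions and are 90.0% identical, and their longest identical stretch is 72 bases. To show how reads of the pair can be told apart, coding bases 152 to 241 of both genes in GRCm38 are given here with the 9 positions that differ in capitals.
Hsd3b1: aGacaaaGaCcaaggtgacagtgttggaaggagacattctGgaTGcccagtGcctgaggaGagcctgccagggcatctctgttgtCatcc
Hsd3b6: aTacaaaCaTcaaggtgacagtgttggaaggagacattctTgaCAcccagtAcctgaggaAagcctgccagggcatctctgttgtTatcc

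Of all stretches of 50 bases in its transcripts, Hsd3b1 shares 4.86% with other genes and Hsd3b6 15.6%, most of the latter with Hsd3b2. Reads that lie wholly within shared sequence could not be placed on 1 gene, and both values carry that uncertainty. The length of the RNA-seq reads is not given in the sources used here, so how many reads this concerns is not known. Hsd3b1 had 107, 95.9 and 84.7 CPM in Mov10-/- replicates 2, 3 and 4 and 95.5, 68.2 and 77.6 CPM in wild type replicates 1, 2 and 3. Hsd3b6 had 106, 83.1 and 79.2 CPM and 86.4, 70.2 and 56.0 CPM in the same libraries. For both genes Mov10-/- replicate 2 was the highest and wild type replicate 1 lay inside the Mov10-/- range. The log2 fold changes were 0.25 ± 0.15 for Hsd3b1 and 0.35 ± 0.19 for Hsd3b6 (SE), with adjusted p of 0.425 and 0.370 in edgeR's quasi-likelihood test. Hsd3b6 had the lowest unadjusted p of all members, 0.0993. Without wild type replicate 1 the values were 0.38 and 0.50, with unadjusted p of 0.0378 and 0.0333 and adjusted p of 0.252 and 0.246 in edgeR's test.

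The ratio of Hsd3b6 to Hsd3b1 reads, which does not depend on the scaling of the libraries, was 0.992, 0.866 and 0.936 in the Mov10-/- libraries and 0.904, 1.03 and 0.722 in the wild type libraries. The wild type libraries enclosed all 3 Mov10-/- libraries. The mean log2 ratio differed by 0.09 (exact permutation test, two-sided, p = 0.8; 3 against 3 libraries cannot give a p below 0.1). The paralogs were near absent, with Hsd3b2 and Hsd3b3 at no more than 1.29 CPM in any library, no read on Hsd3b4 or Hsd3b5, and 1.36 to 3.89 CPM on Hsd3b7, a bile acid enzyme.

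Cyp17a1 (ENSMUSG00000003555, chromosome 19, 46667165 to 46673172, minus strand), whose hydroxylase and lyase steps turn progestins into androgens, had 93.9, 93.7 and 70.4 CPM in the Mov10-/- libraries and 118, 93.9 and 43.3 CPM in the wild type libraries. The Mov10-/- values lay inside the wild type range, which spanned 2.72-fold between replicates 1 and 3. The log2 fold change was 0.02 ± 0.33 (SE), with a 95% interval of -0.74 to 0.77, and it fell on either side of 0 as single libraries were left out, from -0.32 to 0.32. The ratio of Cyp17a1 to Cyp11a1 reads was 0.844, 1.21 and 0.898 in Mov10-/- and 1.03, 1.01 and 0.643 in wild type libraries, a log2 difference of 0.15 (exact permutation p = 0.7).

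Hsd17b3 (ENSMUSG00000033122, chromosome 13, 64058266 to 64089230, minus strand), which makes testosterone from androstenedione, was the lowest of the enzymes per length. It had 22.8, 14.9 and 15.6 CPM in Mov10-/- replicates 2, 3 and 4 and 16.6, 12.3 and 10.8 CPM in wild type replicates 1, 2 and 3. Wild type replicate 1 exceeded 2 of the Mov10-/- libraries. Its log2 fold change was 0.46 ± 0.27 (SE; adjusted p = 0.417, edgeR quasi-likelihood test), with a 95% interval of -0.18 to 1.09.

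Srd5a1 (ENSMUSG00000021594, chromosome 13, 69573449 to 69611442, minus strand), the 5-alpha-reductase of immature Leydig cells, was the steadiest member. It had 41.6, 38.7 and 36.0 CPM in the Mov10-/- libraries and 40.6, 45.0 and 38.7 CPM in the wild type libraries, and its log2 fold change of -0.09 ± 0.13 (SE) had the narrowest bounds apart from those of Nr5a1, from -0.40 to 0.22. 16.4% of its exon bases are shared with the predicted gene Gm17108, so some of its reads may have been set aside in counting. The ratio of Srd5a1 to Hsd17b3, reductase to testosterone-forming enzyme, was 1.82, 2.59 and 2.31 in the Mov10-/- libraries and 2.44, 3.67 and 3.58 in the wild type libraries. 1 wild type library, replicate 1, lay among the Mov10-/- values and the other 2 lay above them. The log2 difference of -0.52 was the largest of the 4 ratios that do not involve Insl3 and had an exact permutation p of 0.2, or 0.75 after adjustment over the 5 ratios compared.

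Nr5a1 (ENSMUSG00000026751, chromosome 2, 38692656 to 38714542, minus strand), which encodes steroidogenic factor 1 and is also active in Sertoli cells, had 129, 109 and 110.2 CPM in the Mov10-/- libraries and 99.3, 86.3 and 111 CPM in the wild type libraries. Only wild type replicate 3 reached the Mov10-/- range. The log2 fold change was 0.23 ± 0.13 (SE; 95% interval -0.06 to 0.52; adjusted p = 0.375, edgeR quasi-likelihood test) and -0.06 with the Sertoli list as the scale.

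Insl3 (ENSMUSG00000079019, chromosome 8, 71689214 to 71690575, plus strand), an insulin-like hormone that guides testis descent and a main product of mature Leydig cells, was almost without reads. The Mov10-/- libraries had 4, 4 and 5 reads and the wild type libraries 2, 1 and 6, which is 0.136 to 0.818 CPM and under the minimum for the test. When no minimum was set, its adjusted p was 0.673 (edgeR quasi-likelihood test), on 13 reads in Mov10-/- and 9 in wild type libraries. The annotation bears on this count. Insl3 has an exon of 219 bases (71689214 to 71689432) and one of 404 bases (71690172 to 71690575), and the second lies wholly inside the last exon of Jak3 on the same strand, so that 64.8% of its exon bases belong to both genes. A read there does not belong to 1 gene even when strand is used, and how the counting treated such reads is not given in the sources used here. Jak3, a kinase of blood cells, had 16.3 to 28.4 CPM in Mov10-/- and 20.5 to 39.3 CPM in wild type libraries. The coding part of the first exon, shown here with the start codon in capitals because it is the only coding sequence of Insl3 in this annotation not shared with Jak3, is chr8:71689258-71689432 of GRCm38 on the plus strand.
Insl3 exon 1, coding: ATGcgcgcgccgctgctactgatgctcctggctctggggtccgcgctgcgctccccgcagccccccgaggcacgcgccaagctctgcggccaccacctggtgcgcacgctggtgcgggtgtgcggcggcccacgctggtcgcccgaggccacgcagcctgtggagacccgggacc

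The count alone does not give the level of Insl3 RNA in these testes. For the other members 2.06% (Cyp11a1) or none (Star, Cyp17a1, Hsd17b3, Lhcgr and Nr5a1) of the stretches of 50 bases occur in another gene, apart from the values given for Hsd3b1 and Hsd3b6 and 15.1% for Srd5a1. The ratio of Insl3 to Star differed by 0.64 on the log2 scale on 1 to 6 Insl3 reads per library (exact permutation p = 0.6), from 0.16 without wild type replicate 2 to 1.53 without wild type replicate 3 and 0.34 with 1 read added to each count. The ratio of Lhcgr to Star differed by -0.43 (exact permutation p = 0.3, adjusted 0.75 over the 5 ratios).

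NR5A1 binds DNA as a single molecule at sites close to CAAGGNC. Promoters of 300 bases in RefSeq (GRCm38.p6) were at hand for 7 of the 10 genes, with 2 for Cyp11a1, and were searched for CAAGGNC on both strands. The 2 for Cyp11a1, chr9:57997774-57998073 and chr9:58014702-58015001, do not cover the start of that gene given above (58006411), so the sequence there was not searched. Of these 8 windows only that of Insl3 held the letters, at 2 places, and 17.8% of 32851 mouse promoters did so. Both places are shown in capitals with 12 bases on each side, beginning 137 and 57 bases before the RefSeq start of the gene (71689252), which is 99 and 19 bases before the start given above, at chr8:71689103-71689133 and chr8:71689183-71689213 on the plus strand.
Insl3 distal: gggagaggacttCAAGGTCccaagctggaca
Insl3 proximal: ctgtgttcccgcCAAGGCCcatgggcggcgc

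A match is a string of letters and not a bound site, and its absence from the other windows says only that these letters are not there.

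**Figure D2:**
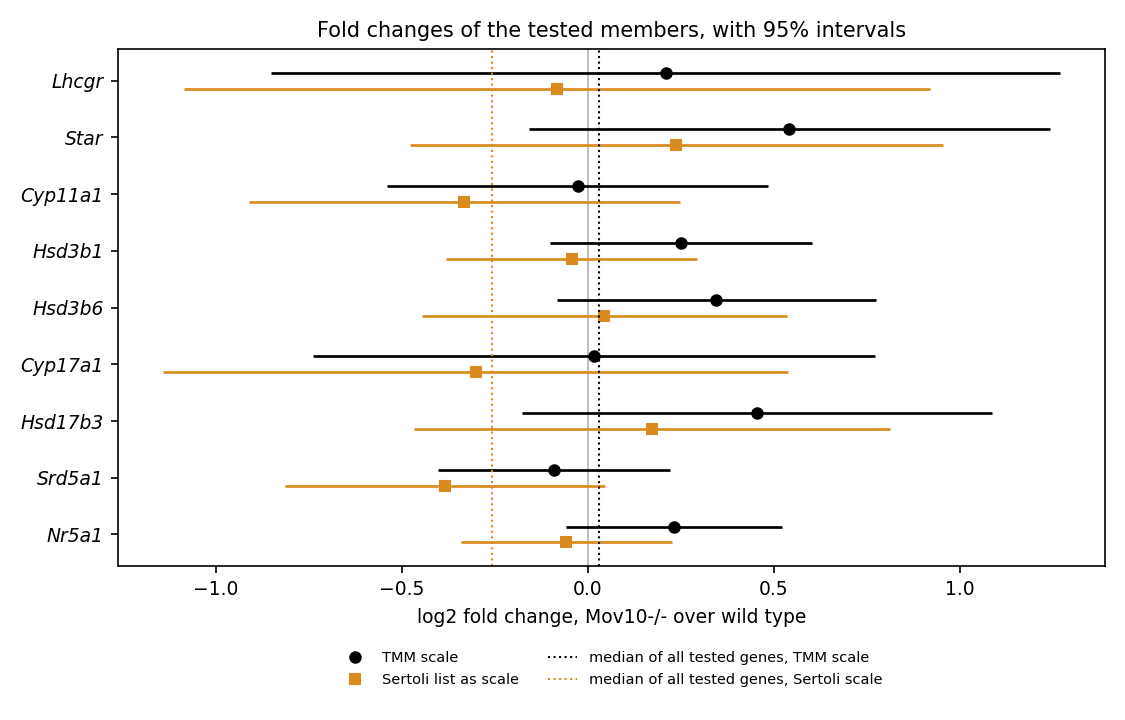
Log2 fold change of Mov10-/- over wild type for the 9 members tested, with 95% intervals from edgeR, on the TMM scale (black circles) and with the Sertoli list as the scale (orange squares); dotted lines are the medians of all tested genes, 0.03 and -0.26. All 18 intervals hold 0, and the points for Lhcgr, Hsd3b1, Cyp17a1 and Nr5a1 lie above 0 on the TMM scale and below 0 on the Sertoli scale.

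Levels were compared between genes per length, as reads per kilobase of merged exons at a fixed library total (RPKM). In wild type testes Hsd3b1 (43.4 ± 8.5 RPKM, SD, n = 3) and Hsd3b6 (39.3 ± 8.8) came first, followed by Cyp17a1 (30.6 ± 13.9), Nr5a1 (23.3 ± 3.4), Cyp11a1 (19.0 ± 5.1), Star (14.7 ± 5.9), Srd5a1 (14.2 ± 0.7), Hsd17b3 (9.52 ± 2.32), Lhcgr (5.75 ± 3.17) and Insl3 (0.55 ± 0.44). Each neighbour in this order overlapped the next over the 3 libraries, with 2 exceptions. The lowest Srd5a1 library (13.5) was above the highest Hsd17b3 library (12.2), and the lowest Lhcgr library (3.58) was above the highest Insl3 library (1.04), the latter a count taken over exons of which a part is shared with Jak3. In Mov10-/- testes the order was the same except that Star (21.2 ± 6.8 RPKM) stood above Cyp11a1 (18.6 ± 4.6), whose libraries overlapped. Per length of the longest transcript in place of merged exons, Srd5a1 preceded Star in wild type testes while the first 5 kept their places, and in Mov10-/- testes Nr5a1 preceded Cyp17a1 and Cyp11a1 preceded Star.

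**Figure D3:**
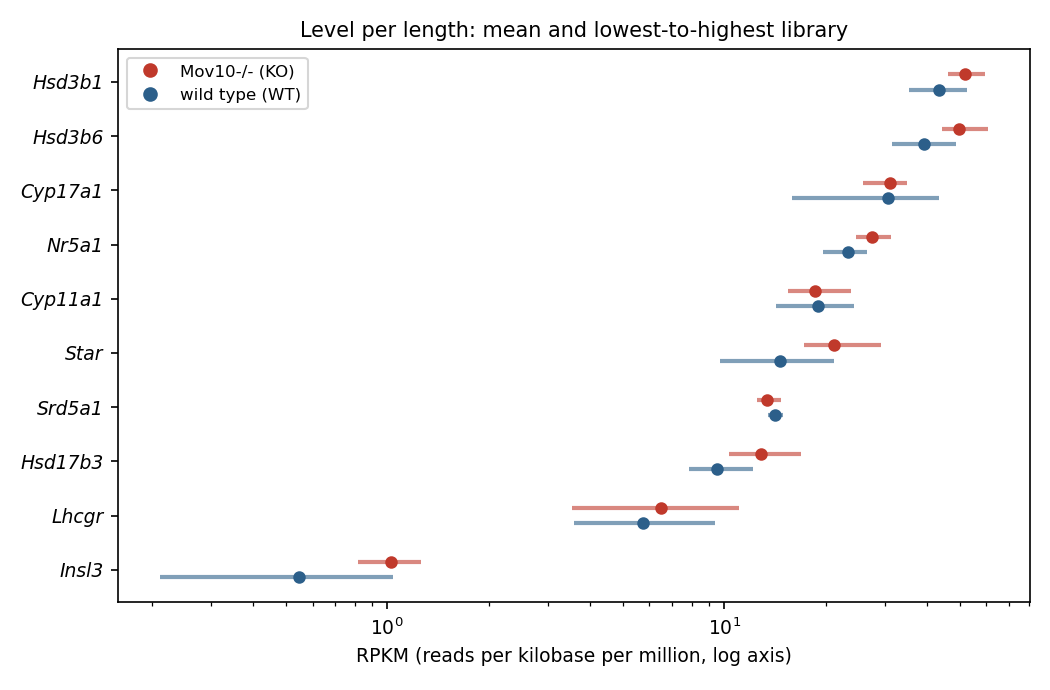
Level per length of the 10 genes in RPKM on a log axis, ordered by the wild type mean. Points are means of 3 libraries and bars run from the lowest to the highest library; Hsd3b1 and Hsd3b6 are highest, Insl3 is lowest in both genotypes, and the red and blue bars of each gene overlap.

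Several members varied widely between mice of the same genotype. The SD of log2 CPM within genotypes was 0.75 for Lhcgr, 0.56 for Cyp17a1 and 0.48 for Star, which were the 96.4th, 93.8th and 91.6th percentiles of the 13230 tested genes above 10 CPM. Cyp11a1 (0.34), Hsd17b3 (0.32), Hsd3b6 (0.27) and Hsd3b1 (0.21) were in between, and Nr5a1 (0.16) and Srd5a1 (0.11) were in the lower part of the range. The median of the 9 members was 0.319, against 0.202 for all of these genes, 0.178 for the Sertoli list and 0.323 for the macrophage list. Mov10-/- replicate 2 was the highest library for 6 of the 9 members, wild type replicate 1 for 2 and wild type replicate 2 for 1, while wild type replicate 3 was the lowest for 5. The 2 libraries with the most reads on the members were therefore 1 of each genotype, and the 10 genes together took 0.0836% of the reads in Mov10-/- replicate 2, 0.0740% in wild type replicate 1 and 0.0483% to 0.0592% in the other 4.

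Mov10-/- replicate 2 had the highest sum of the Leydig, macrophage, Sertoli, peritubular, endothelial and spermatogonial lists. It had the lowest sum of the spermatocyte and spermatid lists. The members summed to 810.3, 615 and 582 CPM in Mov10-/- replicates 2, 3 and 4 and to 728, 553 and 477 CPM in wild type replicates 1, 2 and 3. The 8 macrophage genes, such as Csf1r and Mrc1, were also highest in Mov10-/- replicate 2 (435 CPM) and wild type replicate 1 (387 CPM), with 295 and 334 CPM in the remaining Mov10-/- and 225 CPM in both remaining wild type libraries. The ratio of the member sum to the macrophage sum ran from 1.74 to 2.45, and the ratio to the sum of the 10 Sertoli genes from 0.686 to 1.11. To the sum of the 7 peritubular genes it ran from 0.966 to 1.41, and to that of 7 endothelial genes from 3.00 to 5.16. The Sertoli genes summed to 712 to 824 CPM in Mov10-/- and 529.6 to 695 CPM in wild type libraries, without overlap. They were also highest in Mov10-/- replicate 2, but wild type replicate 3 (695 CPM) was above wild type replicate 1 (656 CPM). 4 of the 9 Sertoli genes tested had an unadjusted p under 0.05 as higher in Mov10-/- (Sox9, Wt1, Cldn11 and Aard), and none was called. The 7 peritubular genes summed to 517 to 676 CPM in Mov10-/- and 486 to 517 CPM in wild type libraries. The part of other cell types, or of what was dissected with the testis, in the members' values was not tested.

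**Figure D4:**
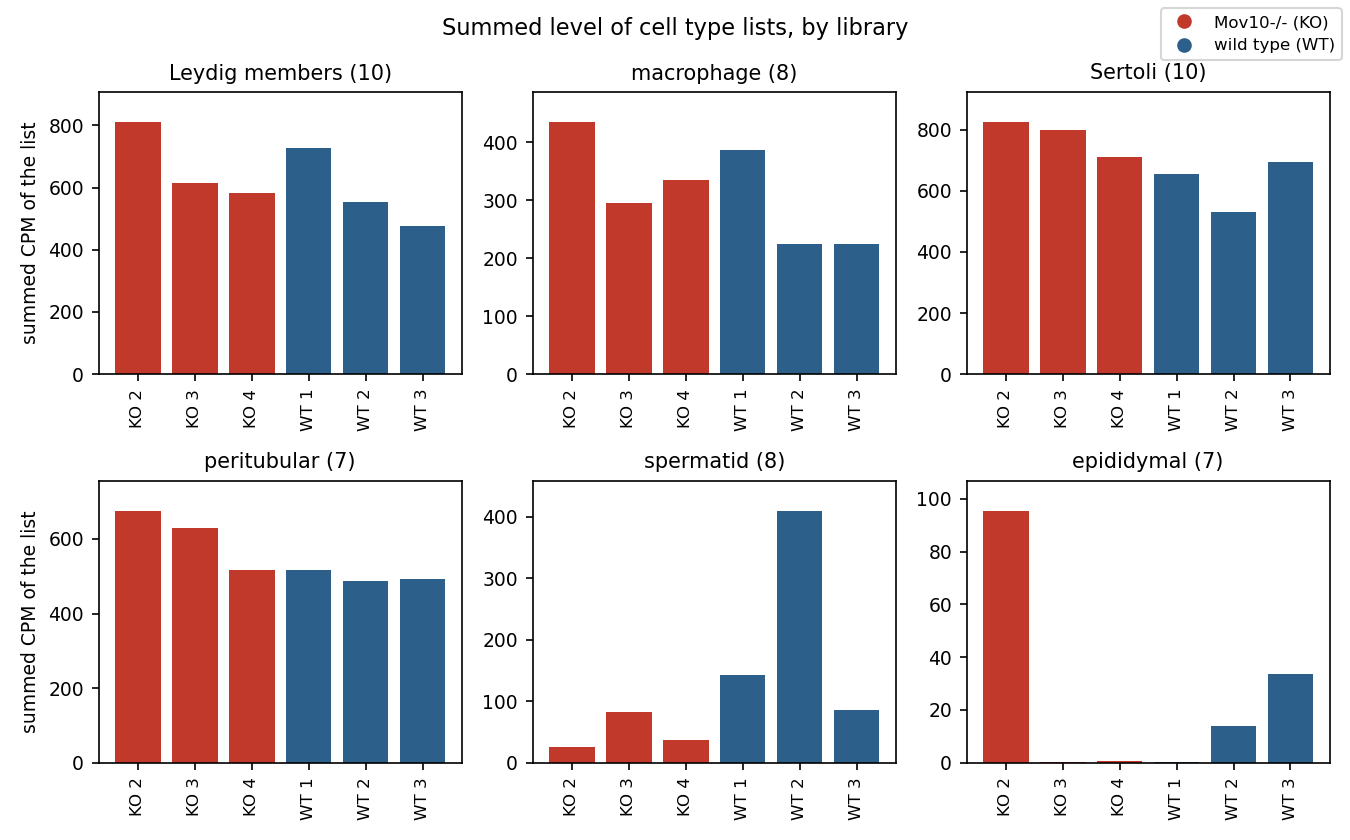
Summed CPM of 6 cell type lists in the 3 Mov10-/- (red) and 3 wild type (blue) libraries, on linear axes from 0, with the number of genes per list in the panel title. Mov10-/- replicate 2 is the highest library in every panel (95.5 CPM for the epididymal genes) except that of the spermatid genes, which are highest in wild type replicate 2 (409.6 CPM). For the Leydig members and the macrophage genes wild type replicate 1 comes next.

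Genes of the adrenal cortex, the other steroidogenic tissue, were checked because some members, such as Star, Cyp11a1 and Nr5a1, are also active there. Cyp11b1, Cyp11b2 and Mc2r, which define adrenal cells, were at no more than 0.409 CPM in any library. Mrap, also on the adrenal list, was present in every library, with 18.3, 19.6 and 15.1 CPM in Mov10-/- and 25.6, 14.2 and 5.99 CPM in wild type libraries. Cyp21a1, the adrenal 21-hydroxylase that mouse Leydig cells also express at a low level, had 2.05 to 5.19 CPM in Mov10-/- and 0.748 to 3.28 CPM in wild type libraries. Akr1b7, a reductase abundant in both the adrenal gland and the vas deferens, had 88.3 CPM in Mov10-/- replicate 2 and 26.4 CPM in wild type replicate 2, and 1.29 to 6.52 CPM in the other 4. It was high in libraries with epididymal reads, but in wild type replicate 3, which also had them, it was at 6.52 CPM.

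The wider pathway also held no called gene. Of 11 genes of cholesterol supply, all tested, 8 had a log2 fold change above 0 (median 0.20), none had an unadjusted p under 0.05, and the gene with the highest CPM was the efflux transporter Abca1 (296 ± 52.2 CPM in Mov10-/- against 229.5 ± 50.1 CPM in wild type, SD, n = 3). The largest values were those of the lipase Lipe (-0.44 ± 0.31) and of Abca1 (0.37 ± 0.18; log2 ± SE). Scarb1 and Npc2, which take up and release lipoprotein cholesterol, did not overlap between genotypes, at 147 to 164 against 135 to 144 CPM and at 85.3 to 92.0 against 70.2 to 79.9 CPM, with unadjusted p of 0.0914 and 0.0598 and adjusted p of 0.359 and 0.302 in the edgeR test. Both were chosen here for not overlapping, after their values were seen.

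Of 21 genes of cholesterol synthesis, all tested, 10 were above 0 (median -0.04). Sqle, the squalene epoxidase, was the member of that list with an unadjusted p under 0.05, with 78.8, 80.6 and 86.1 CPM in Mov10-/- against 98.7, 114 and 93.8 CPM in wild type libraries (log2 fold change -0.32 ± 0.11; adjusted p = 0.221, edgeR), and all 3 Mov10-/- libraries were below. Fdps had -0.25 ± 0.29. Of 6 redox partners of the steroidogenic P450 enzymes 5 were above 0 (median 0.16). Por, the reductase that supplies CYP17A1 with electrons, had 83.5, 97.6 and 76.2 CPM in Mov10-/- and 69.7, 59.6 and 67.0 CPM in wild type libraries, without overlap (log2 fold change 0.37 ± 0.13; unadjusted p = 0.0194, adjusted p = 0.212, edgeR). Its counterpart for CYP11A1, the pair of Fdx1 and Fdxr, had 0.16 ± 0.17 and 0.16 ± 0.12, Cyb5b had the highest CPM of the group (172 ± 3.29 against 160.4 ± 4.27, SD, n = 3), and Cyb5r3 had 0.22 ± 0.12.

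Among 10 other steroid-metabolizing genes, 9 were in the files and 6 were tested. Cyp19a1, the aromatase that converts androgens to estrogens and is made by germ cells as well as Leydig cells, had 2.22, 2.25 and 3.32 CPM in Mov10-/- and 2.93, 9.27 and 7.59 CPM in wild type libraries (log2 fold change -1.29 ± 0.51; adjusted p = 0.249, edgeR). Wild type replicate 2, its highest library, was also the highest for the spermatid genes, and wild type replicate 1 lay inside the Mov10-/- range. Srd5a2, the other 5-alpha-reductase, was at 2.96 CPM or less, Srd5a3 had 0.08 ± 0.20, and Hsd17b6 had no read.

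Of 13 genes of the hormone signal, 10 were above 0 (median 0.11). Gnas, the stimulatory G protein that couples LHCGR to adenylate cyclase, had 133, 166 and 123 CPM in Mov10-/- and 116, 112 and 113 CPM in wild type libraries, without overlap (log2 fold change 0.30 ± 0.12; unadjusted p = 0.0440, adjusted p = 0.267, edgeR). The phosphodiesterase Pde8a, with the highest CPM, had -0.12 ± 0.14, and the largest values were those of Ghr (0.62 ± 0.36) and Igf1 (0.55 ± 0.35), which were again highest in Mov10-/- replicate 2. Of 8 transcription factors of Leydig cells 7 were above 0 (median 0.21), and 3 had an unadjusted p under 0.05 as higher in Mov10-/-. Among them were Nr0b1, a repressor of NR5A1 that Sertoli cells share (0.45 ± 0.16; adjusted p = 0.218), and Cebpb (1.34 ± 0.55; adjusted p = 0.258), both by the edgeR quasi-likelihood test. Nr0b1 did not overlap between genotypes, and Cebpb, at 0.682 to 5.52 CPM, did. Gata4, with the highest CPM, had 0.18 ± 0.14. The Sertoli genes, which some of these factors accompany, lay on the same side, and the part of Sertoli cells in these values was not tested.

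Of 8 other markers of Leydig cells 5 were above 0 (median 0.13), and Ptgds, a prostaglandin D synthase, had 23.5, 17.4 and 22.1 CPM in Mov10-/- and 14.5, 5.45 and 5.45 CPM in wild type libraries, without overlap (log2 fold change 1.33 ± 0.37; unadjusted p = 0.00780, adjusted p = 0.192, edgeR). Hsd11b1, another gene of this list, was lower in Mov10-/- without overlap, at 0.944 ± 0.379 against 1.62 ± 0.13 CPM (SD, n = 3). It was near the minimum for the test, with 21 reads in Mov10-/- and 41 in wild type libraries. Its log2 fold change was -0.702 ± 0.354 (SE; unadjusted p = 0.081, adjusted p = 0.34, edgeR). Vcam1, with the highest CPM, had -0.13 ± 0.28, and Klk1b24 had 0.29 ± 0.48. Of 7 genes of fetal or progenitor Leydig cells 6 were tested and all 6 were above 0 (median 0.26), with none at an unadjusted p under 0.05. Pdgfra, with the highest CPM, had 0.43 ± 0.25, Nes had 0.30 ± 0.23, and Dlk1, a marker of fetal Leydig cells, had no read in any of the 6 libraries.

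Genes through which other testis cells receive androgen or INSL3 were also followed. Of 8, 7 were tested and 6 were above 0 (median 0.26). Drd4 had 77.8, 70.6 and 58.2 CPM in Mov10-/- and 55.1, 40.6 and 56.3 CPM in wild type libraries (log2 fold change 0.43 ± 0.17; adjusted p = 0.247, edgeR). Rxfp2, the receptor for INSL3, which germ cells of the testis carry, had 7.90, 16.0 and 11.2 CPM in Mov10-/- and 18.6, 30.4 and 18.3 CPM in wild type libraries, without overlap (log2 fold change -0.99 ± 0.33; unadjusted p = 0.0169, adjusted p = 0.207, edgeR). Its highest library was wild type replicate 2 and its lowest Mov10-/- replicate 2, which were also the highest and lowest libraries of the spermatid list, and the part of spermatids in that value was not tested. Cldn3, a Sertoli cell gene that responds to androgen, had 0.44 ± 0.51. Rhox5, another such gene, had 1 read over the 6 libraries (at most 0.123 CPM), and Rhox8 of the Sertoli list had no read. Whether these counts give the level of the 2 genes or a limit of the counting was not tested.

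The genes most like the members over the 6 libraries were sought among 12198 protein-coding genes with a mean of at least 10 CPM. 89 had a Pearson correlation above 0.9 with the mean standardized log2 CPM of the 9 members. The first 5 were Slc48a1 (0.996), S1pr3 (0.994), Glb1l3 (0.991), Cyfip2 (0.988) and Tmem176b (0.986), with log2 fold changes of 0.11 to 0.30 and none called. All 5 were highest in Mov10-/- replicate 2 and second in wild type replicate 1. These correlations describe 6 libraries that share their depth and composition with the members, and genes chosen for a likeness over so few points need not share a function or a cell.

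MOV10 CLIP-seq gave almost nothing on the members. The 4 libraries held 3404 to 4934 reads on genes, and a single read was worth 203 to 294 CPM. These counts are not the sequencing depth, since 99.5% to 99.6% of all CLIP-seq reads had no alignment and, of those placed once, 81.3% to 90.4% lay outside genes. 2 of the 15710 reads in all lay on members, both on Star, 1 in replicate 1 and 1 in replicate 2. Replicates 1, 2 and 3 differed by less than the sampling noise (a chi-square of 0.219 to 0.237 per degree of freedom) and were counted here as 1 sample. The paper describes 4 CLIP-seq libraries with different indexes, and why these 3 were so alike was not tested. Both reads came from what may be 1 library. At the members' share of wild type RNA-seq reads, 0.0584%, 4.98 reads would have fallen on them when replicates 1, 2 and 3 are averaged into 1 (8526 reads on genes), and 9.17 when all 4 libraries are summed. The other 9 members had no read, which at this depth allows up to 608 to 881 CPM per library (3 counts, counting error only), so MOV10 binding of these 9 was not detectable here.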

How the data were processed

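For every library the values deposited by the authors are unnormalized read counts, 1 per Ensembl gene. According to the methods and the labels, RNA-seq reads were trimmed, aligned to mm10 with STAR and counted with htseq-count on Ensembl annotation; the strand setting and the handling of overlapping genes are not given in the sources used here. Lines for reads outside genes, ambiguous, not unique or not aligned stayed out of the library totals. Symbols, coordinates and exons came from another mm10 annotation, which matched 55240 of the 55421 genes.

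The 3 Mov10-/- and 3 wild type RNA-seq libraries were compared with edgeR 4.0.16 (TMM, quasi-likelihood test, Benjamini-Hochberg) in R 4.3.3, on genes above 1 CPM in at least 3 libraries. CPM in the text are TMM scaled. On simulated counts of 19886 genes for this comparison, 174 of 200 genes changed 4-fold and 9 unchanged genes were called, and 94.6% of the 95% intervals held the true value. Ratios of 2 genes were tested by exact permutation. The methods name a separate pair of testes for each RNA-seq library, whereas for CLIP-seq it is not given whether libraries came from separate mice. DESeq2 1.42.0, limma 3.58.1 and other settings were alternatives. Each list is named by its most abundant gene, the 2 largest changes at a mean of at least 5 CPM and any called gene, a few of which are not reported here; genes at an unadjusted p under 0.05 or without overlap were named after their values were seen. The members and lists were chosen with earlier results of these data known.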

Additional observations from a re-analysis of the deposited data

How the results depend on the processing

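No member was called under any of the 16 alternatives, among them DESeq2, the edgeR exact test and voom. The number of genes called was 15 with 46.7% higher in Mov10-/-, 7 (57.1% higher) with DESeq2 size factors, 6 (33.3%) with the Sertoli list as the scale, 1039 (4.91%) in DESeq2, 1101 (6.36%) in the exact test, 2 with voom, 1 with the legacy quasi-likelihood method, 9 without a filter on low counts, 0 to 2 with 1 library left out and 0 without Mov10-/- replicate 2 and wild type replicate 3, which was added after the data were seen. The cause of these differences was not tested.

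With the Sertoli list as the scale the members' median was -0.057, and the log2 fold changes of Cyp17a1 (-0.30), Lhcgr (-0.081), Nr5a1 (-0.057) and Hsd3b1 (-0.043) turned sign. Without Mov10-/- replicate 2 and wild type replicate 3, those of Cyp17a1 (-0.41), Lhcgr (-0.60) and Star (-0.0019) did, and 1 member, Cyp11a1 (-0.43), had an unadjusted p under 0.05. With 1 library left out, 0 to 3 members did so, and Cyp17a1 ranged from -0.32 to 0.32, Lhcgr from -0.39 to 0.72, Cyp11a1 from -0.23 to 0.16 and Star from 0.26 to 0.88. The log2 difference of Hsd3b6/Hsd3b1 then ranged from -0.054 to 0.20 and that of Cyp17a1/Cyp11a1 from -0.071 to 0.27.

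Replicate numbers 2 and 3 are shared by the genotypes, but samples of the same number deviated in opposite directions (correlations of -0.60 and -0.46 over 13230 genes). The labels do not say that a number marks a pair. These deviations were taken from the mean of each genotype and cannot show whether samples of a number shared a batch. With the replicate block, 1202 genes were called (9.98% higher), the members' median was 0.53 and Cyp11a1 was at 0.23. Star alone of the members had an unadjusted p under 0.05 (log2 fold change 0.99, adjusted p = 0.0557, edgeR quasi-likelihood test). Only numbers 2 and 3 occur in both genotypes, so these differences rest on the libraries of those numbers alone. Mov10-/- replicate 4 and wild type replicate 1 added nothing to them. Depth limits Insl3 (1 to 6 reads) and CLIP-seq.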
